A study of Homo sapiens with 6 samples.

Results

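The genes described here are 40 genes of protein folding in the endoplasmic reticulum (ER) and of the unfolded protein response (UPR), the signalling that matches folding capacity to load. They comprise ER chaperones, oxidoreductases, components of ER-associated degradation (ERAD), parts of the translocon, the 3 UPR sensors and several effectors. They were listed by name, and a gene was read only from probes annotated with its symbol alone. Of the 40 genes, 39 had such a probe (56 probes in all). HSP90B1, which encodes the ER form of Hsp90, had only a probe shared with the symbol of another gene and was not analysed here. On the filter for dim genes, which required the brightest of the 6 arrays to reach the table's median intensity of 641.8, 37 of the 40 were among the 11954 genes kept out of 18365. PDIA3, a lectin-associated disulphide isomerase, read 184.5 to 246.6 in the SFRP clones and 234.9 in mock, and DERL2, an ERAD channel protein, read 62.3 to 108.5 in the clones and 90.2 in mock, so neither was kept.

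The series profiled 6 populations called HM20, and the labels give their cell line as A549, which was established from a human lung adenocarcinoma. In the labels, 5 of them are stable clones that express SFRP1, SFRP2, SFRP3 (gene FRZB), SFRP4 or SFRP5, secreted Frizzled-related proteins that bind Wnt ligands, and 1 is a mock population. All 6, mock included, received Wnt3a-containing medium for 24 hours before RNA extraction, so no value without added Wnt3a was measured. Each population is 1 clone or culture on 1 array, so there are no replicates and precision is limited by the number of arrays. The labels do not say what HM20 adds to A549 or which vector carried the inserts. The probe of the gene that each clone is labelled for was 0.58 above mock on the log2 scale in the SFRP1 clone. It read 88063 there and was already high in mock, at 58836. In the other 4 clones the probe was below mock (-0.65 in SFRP5 to -0.12 in SFRP3). These 4 probes read 58.1 in SFRP2, 436.4 in SFRP3, 53.3 in SFRP4 and 44.5 in SFRP5. In mock they read 72.4, 475.5, 67.7 and 70.5. All these values lie below the filter intensity of 641.8, and differences between values this low were not tested. The clones are therefore named here as labelled. Whether the probes of the labelled genes lie within the inserts was not known.

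The UPR begins at the ER membrane. The chaperone BiP, encoded by HSPA5, binds unfolded proteins and holds the sensors IRE1 (ERN1), PERK (EIF2AK3) and ATF6 inactive. When unfolded proteins accumulate, IRE1 splices XBP1 mRNA into a form that encodes a potent transcription factor, ATF6 is cleaved in the Golgi to release one, and PERK phosphorylates the translation factor eIF2alpha, which slows protein synthesis and favours translation of ATF4. XBP1 and ATF6 raise the genes of chaperones, oxidoreductases and ERAD, while ATF4 raises DDIT3 (CHOP) and PPP1R15A (GADD34), whose product reverses the phosphorylation. In secretory and lung epithelial cells the pathway adjusts the ER to the amount of protein exported.

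ATF6 and XBP1 act through short elements near the start sites of their target genes, and these were looked for first because they are a property of the genes that owes nothing to the arrays. The RefSeq windows (GRCh38.p14) of 250 bases before to 50 after each start site were searched on both strands for the ER stress element ERSE (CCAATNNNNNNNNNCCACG), for ERSE-II (ATTGGNCCACG) and for the element UPRE (TGACGTGG). Of the 40 genes, 36 had a window, 2 of them under newer symbols. ERSE was found for 9 of these 36 genes (25.0%), against 25 of all 27305 genes with a window (0.0916%). ERSE-II was found for 3 of 36 (8.33%), against 19 of all genes (0.0696%), and UPRE for 2 of 36 (5.56%), against 253 of all genes (0.927%). The 13 genes with at least 1 match (36.1%, against 1.08% of all genes) were HSPA5, HSP90B1, HYOU1, CALR, CANX, CRELD2, PDIA6, DNAJC10, ERO1LB, HERPUD1, SDF2L1, SERP1 and XBP1. Some of these promoters are those in which the elements were first defined, so the shares describe the list and are not a test. HYOU1 held 2 copies of ERSE-II, one of which overlapped its UPRE.

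The bases upstream of 7 start sites follow, 5′ to 3′ on the strand of the gene, with the fixed letters of a match in capitals. HSPA5 (chr9:125241344-125241593, minus strand), XBP1 (chr22:28800570-28800819, minus strand) and SERP1 (chr3:150546497-150546746, minus strand) are shown for an ERSE, which lay at -66 to -48, -52 to -34 and -232 to -214 from the start site, the last on the opposite strand. HERPUD1 (chr16:56931892-56932141, plus strand) held an ERSE-II at -117 to -107 and also varied widely between arrays. DNAJB9 (chr7:108569624-108569873, plus strand), EDEM1 (chr3:5187457-5187706, plus strand) and PDIA4 (chr7:149028491-149028740, minus strand, the outer of 2 windows) are shown because they varied most between arrays. The letters of the 3 elements do not occur in these last windows.
HSPA5: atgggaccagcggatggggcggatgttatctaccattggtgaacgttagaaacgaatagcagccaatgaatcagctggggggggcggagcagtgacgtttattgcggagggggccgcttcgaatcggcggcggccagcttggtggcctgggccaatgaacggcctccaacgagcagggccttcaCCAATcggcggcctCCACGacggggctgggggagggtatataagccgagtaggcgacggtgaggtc
XBP1: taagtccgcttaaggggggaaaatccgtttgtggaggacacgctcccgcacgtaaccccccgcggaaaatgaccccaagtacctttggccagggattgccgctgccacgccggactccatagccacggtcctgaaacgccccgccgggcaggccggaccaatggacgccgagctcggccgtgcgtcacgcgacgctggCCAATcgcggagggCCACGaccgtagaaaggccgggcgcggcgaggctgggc
SERP1: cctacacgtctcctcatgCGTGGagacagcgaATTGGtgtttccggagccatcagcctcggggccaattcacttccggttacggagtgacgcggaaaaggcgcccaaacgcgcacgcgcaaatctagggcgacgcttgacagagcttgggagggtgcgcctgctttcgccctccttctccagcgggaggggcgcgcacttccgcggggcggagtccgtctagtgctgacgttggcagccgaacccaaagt
HERPUD1: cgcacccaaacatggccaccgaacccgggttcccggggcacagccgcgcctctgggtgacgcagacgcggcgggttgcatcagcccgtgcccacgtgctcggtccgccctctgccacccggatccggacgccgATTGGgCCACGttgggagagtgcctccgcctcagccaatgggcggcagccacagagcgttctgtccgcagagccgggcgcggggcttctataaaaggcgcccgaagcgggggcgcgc
DNAJB9: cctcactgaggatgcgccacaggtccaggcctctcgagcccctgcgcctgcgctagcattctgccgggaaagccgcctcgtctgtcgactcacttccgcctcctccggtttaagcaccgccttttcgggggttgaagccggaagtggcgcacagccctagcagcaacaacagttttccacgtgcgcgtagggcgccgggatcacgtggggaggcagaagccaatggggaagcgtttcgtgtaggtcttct
EDEM1: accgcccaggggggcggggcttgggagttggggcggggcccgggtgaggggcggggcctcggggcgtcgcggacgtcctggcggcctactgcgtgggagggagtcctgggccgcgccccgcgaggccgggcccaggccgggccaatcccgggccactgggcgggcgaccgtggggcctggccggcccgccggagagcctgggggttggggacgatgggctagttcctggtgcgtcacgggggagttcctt
PDIA4: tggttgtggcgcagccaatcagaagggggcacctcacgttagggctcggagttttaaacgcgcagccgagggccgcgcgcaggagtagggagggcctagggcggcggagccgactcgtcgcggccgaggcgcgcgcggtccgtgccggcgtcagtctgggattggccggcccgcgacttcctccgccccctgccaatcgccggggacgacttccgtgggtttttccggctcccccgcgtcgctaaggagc

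**Figure D1:**
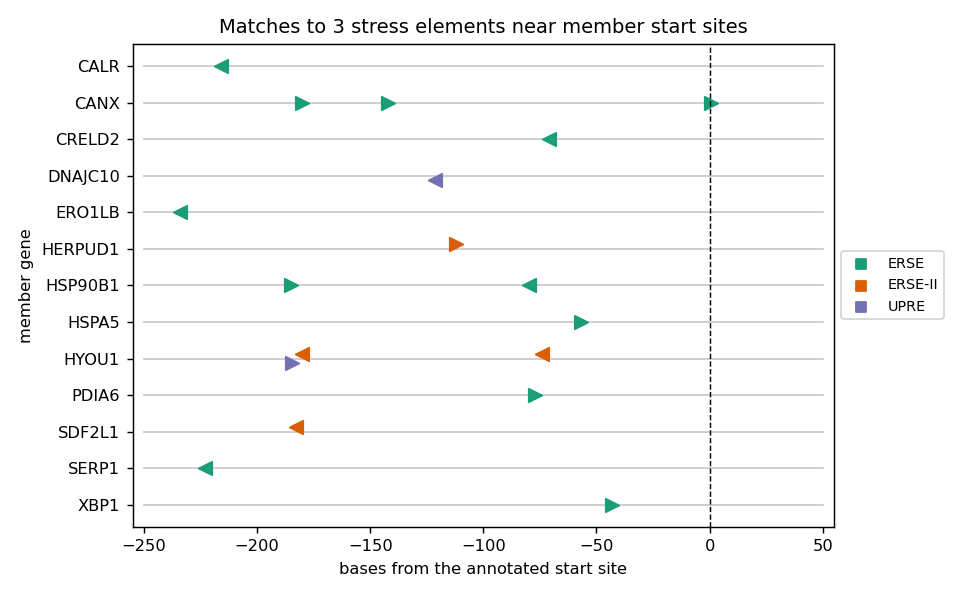
Position of matches to ERSE, ERSE-II and UPRE in the 13 genes with a match, in bases from the annotated start site (dashed line; x axis), 1 gene per row; triangles point right for the strand of the gene and left for the opposite strand. The 3 CANX triangles are 1 site seen from 3 alternative start sites, and the matches of HSPA5 and XBP1 begin at -66 and -52.

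The deposited values are linear intensities that had been scaled, with array medians between 622.5 and 689.0 in the clones, against 599.6 in mock. Differences are given on the scale log2(intensity + 1), clone minus mock, and 1 unit is 2-fold. All 5 clones are set against the same mock array, so the 5 differences of a gene are not independent. An SD over the clones holds only the spread between clones and none of the error of mock. Over all probes the array medians of the clones lay 0.05 (SFRP3) to 0.20 (SFRP5) above mock on this scale. The SFRP4 array correlated least with the others across probes (Pearson r of 0.954 to 0.963, against 0.968 to 0.982 among the remaining 5 arrays). Of 7 lung epithelial cancer markers with a probe, KRT7, KRT8, KRT19, CDH1 and ALDH3A1 were kept and EPCAM and ALDH1A1 were dim on every array. The summed intensity of these 7 was 2344 in SFRP1, 3754 in SFRP2, 6991 in SFRP3, 2449 in SFRP4 and 7549 in SFRP5, against 7106 in mock. SFRP1 and SFRP4, the 2 clones with the lowest sums, were also the 2 with the lowest member medians given below, and the part of epithelial state in those medians was not tested. Blood markers summed to 1838 to 2809 in the clones and 2015 in mock, with CD14, the 1 kept, at 1464 to 2225 in the clones and 1558 in mock, and with PTPRC at 22.9 to 78.3 in the clones and 50.7 in mock. Endothelial markers summed to 1673 to 2003 in the clones and 5302 in mock, where PECAM1 alone read 4134, fibroblast markers to 2717 to 4254 in the clones and 2568 in mock, and alveolar markers to 755.5 to 1438 in the clones and 912.5 in mock. In these 4 lists 1 of 4 blood, 2 of 4 endothelial, 1 of 5 fibroblast and 1 of 5 alveolar markers with a probe were kept.

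Against mock, the ER genes as a set had no common shift over the 5 clones. In SFRP1 29 of the 37 kept members were below mock and in SFRP4 30, where 5485 and 5474 of the 11954 kept genes were. In SFRP2, SFRP3 and SFRP5, 23, 24 and 24 of 37 were above mock, against 6885, 6399 and 6688 of the 11954, so these counts, that of SFRP2 above all, were nearer to the share of all genes. The member median was -0.36 in SFRP1, 0.22 in SFRP2, 0.23 in SFRP3, -0.32 in SFRP4 and 0.24 in SFRP5. The median of all kept genes was 0.05, 0.08, 0.03, 0.06 and 0.10 in the same clones. Counts and medians use the brightest probe of each gene. In SFRP1 the second probes of SYVN1 (0.66), ATF6 (0.33), PPP1R15B (0.18) and DERL3 (0.14) were above mock, unlike the brightest. In SFRP4 those of CREB3L2 (0.53), ATF6 (0.26), DNAJC3 (0.24), DERL3 (0.19) and PPP1R15B (0.03) were. With the mean of all probes the member medians were still below mock, at -0.28 in SFRP1 and -0.14 in SFRP4. Centring the arrays on their medians moved the member median in SFRP5 to 0.04, with all kept genes at -0.11, so the distance from the members to all genes was 0.14 as deposited and 0.15 after centring.

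At 2-fold, SFRP5 had the most members higher and SFRP1 the most lower. In the SFRP5 clone 6 of 37 members were at least 2-fold higher than mock (16.2%, against 5.98% of all kept genes) and 1 was lower (2.70%, against 6.53%). In the SFRP1 clone none was higher (against 4.41%) and 5 were lower (13.5%, against 4.33%). The SFRP4 clone had none higher (against 5.97%) and 3 lower (8.11%, against 7.51%), the SFRP2 clone 1 higher (against 2.8%) and 1 lower (against 3.89%), and the SFRP3 clone 1 higher (against 3.73%) and none lower (against 3.15%). The counts of SFRP2, SFRP3 and SFRP4 were thus near the shares of all genes. After median centring, SFRP5 had 2 members higher (against 3.43% of all genes) and 4 lower (against 10.4%), because HSPA5, HERPUD1, SERP1 and SEC24D lay just above the threshold and came to 0.83 to 0.90, and SFRP1 had 9 lower (against 5.87%). With a threshold of 1.5-fold in either direction, 14 of 37 members passed in SFRP1 (25.3% of all genes), 8 in SFRP2 (20.4%), 8 in SFRP3 (19.7%), 12 in SFRP4 (33.9%) and 19 in SFRP5 (36.1%).

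**Figure D2:**
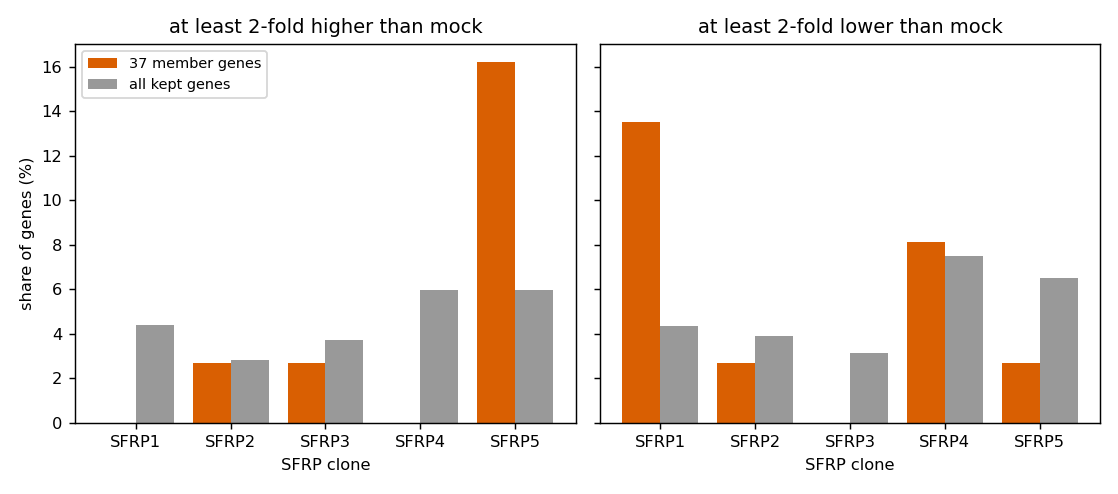
Share of genes at least 2-fold higher (left) or lower (right) than mock in each SFRP clone, in percent of the 37 kept members (orange) and of all 11954 kept genes (grey), 1 array per clone. The member bar stands above the bar of all genes for higher values in SFRP5 (16.2% against 5.98%) and for lower values in SFRP1 (13.5% against 4.33%).

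**Figure D3:**
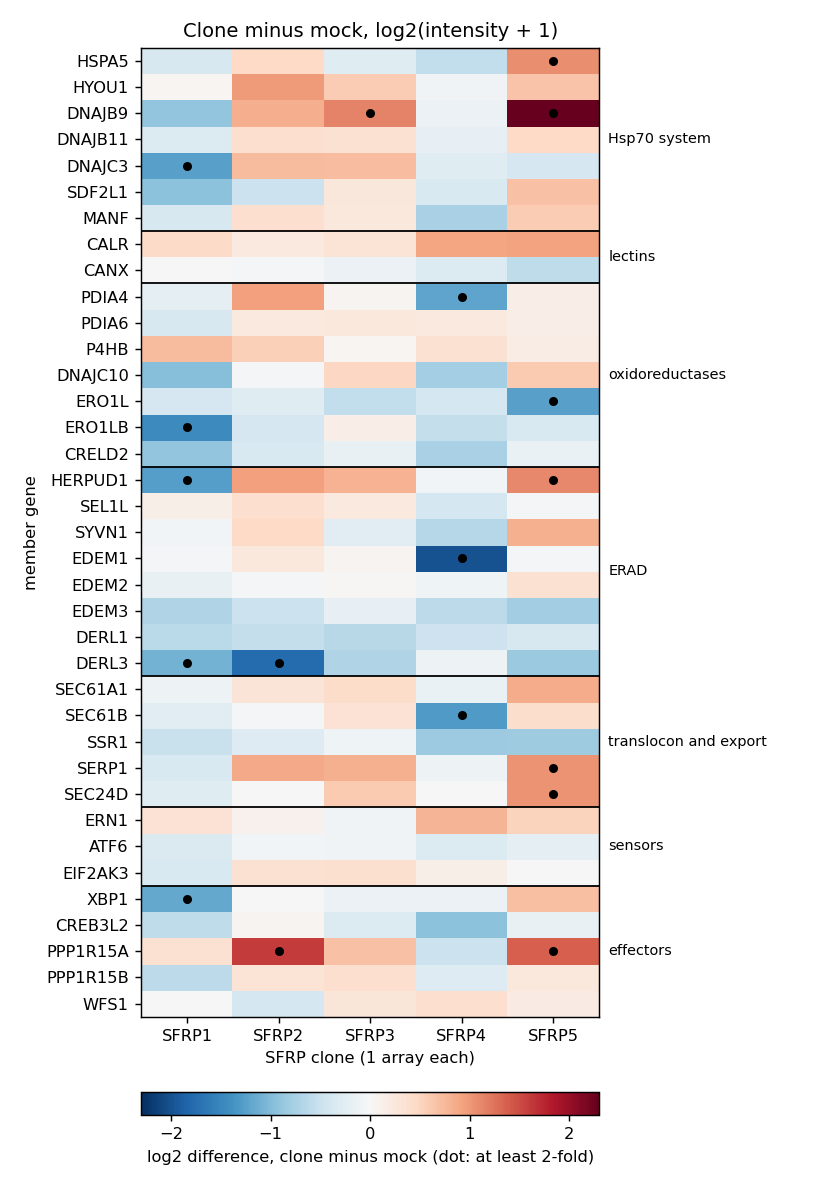
Log2 difference of each clone (columns) from mock for the 37 kept members (rows), grouped by role; red is higher than mock, blue is lower, and a dot marks at least 2-fold. The SFRP1 and SFRP4 columns are mostly blue, DNAJB9 in SFRP5 (2.28) is the highest value and EDEM1 in SFRP4 (-2.01) the lowest.

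The Hsp70 system of the ER lumen had this pattern in most of its members. Of its 7 members, 6 were below mock in SFRP1 (median -0.38) and all 7 in SFRP4 (median -0.28). In SFRP2, SFRP3 and SFRP5, 6 of 7 were above mock, with medians of 0.46, 0.35 and 0.66. HSPA5, the gene of BiP, read 3256 in SFRP1, 5799 in SFRP2, 3472 in SFRP3, 2849 in SFRP4 and 8913 in SFRP5, against 4224 in mock. Its value in SFRP5 was the highest of the 6, 1.08 above mock, and the other differences were -0.38, 0.46, -0.28 and -0.57. DNAJB9 (ERdj4), a BiP cochaperone that recruits it to misfolded proteins and to IRE1 and a known target of spliced XBP1, read 2734 in SFRP1, 9157 in SFRP2, 11338 in SFRP3, 4661 in SFRP4 and 24961 in SFRP5, against 5124 in mock. It had the widest range of all members, 9.13-fold between SFRP5 and SFRP1, and differed from mock by -0.91, 0.84, 1.15, -0.14 and 2.28. DNAJC3 (p58IPK), a cochaperone that also restrains PERK, was 2-fold lower in SFRP1 alone (2237, against 5315 in mock; -1.25) and differed by 0.72 and 0.71 in SFRP2 and SFRP3. Its dimmer probe differed by -0.78 in SFRP1 and by 0.97 and 0.90 in SFRP2 and SFRP3. In SFRP4 and SFRP5 its 2 probes had opposite signs, -0.28 and -0.39 on the brighter and 0.24 and 0.45 on the dimmer. The counts of this group in SFRP4 and SFRP5 thus rest on the brighter DNAJC3 probe.

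The remaining members of this group did not reach 2-fold in any clone. HYOU1, a large Hsp70-like exchange factor of BiP, came nearest, at 0.98 in SFRP2 (14675, against 7423 in mock), with 0.58 in SFRP3 and 0.66 in SFRP5. SDF2L1, a cofactor of the ERdj3 chaperone complex, ranged from 16008 in SFRP1 to 48836 in SFRP5 and read 30696 in mock, differences of -0.94 and 0.67. MANF, a secreted ER stress-inducible factor that binds BiP, ranged from 9695 in SFRP4 to 24373 in SFRP5, with 16206 in mock (-0.74 and 0.59). DNAJB11 (ERdj3), a soluble BiP cochaperone, had a narrower range, from -0.31 in SFRP1 to 0.46 in SFRP5.

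The 2 lectin chaperones differed from each other in sign in most clones. CALR (calreticulin), which holds glycoproteins during folding, was above mock in all 5 clones, at 20762, 17941, 18997, 28851 and 29001 in SFRP1 to SFRP5, against 15357 in mock. None of these differences reached 2-fold (0.22 to 0.92), and SFRP4, low for most members, was among the 2 highest arrays for CALR. CANX (calnexin), its membrane-bound relative, read 103116 to 155721 in the clones and 154883 in mock and differed by -0.59 to 0.01.

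Oxidoreductases form and rearrange disulphide bonds, and their genes differed in sign within clones. In SFRP1 6 of the 7 kept were below mock and in SFRP4 5 of 7, but the medians over SFRP2, SFRP3 and SFRP5 were -0.05, 0.05 and 0.15. PDIA4 (ERp72), a disulphide isomerase of the ER lumen, read 7029 in SFRP1, 15645 in SFRP2, 8408 in SFRP3, 3494 in SFRP4 and 8967 in SFRP5, against 8096 in mock. SFRP4 was the lowest array for it (-1.21) and SFRP2 the highest (0.95), a 4.48-fold range. DNAJC10 (ERdj5), a reductase that prepares ERAD substrates, differed by -0.97 in SFRP1, -0.78 in SFRP4 and 0.60 in SFRP5, but its dimmer probe differed by -0.29 in SFRP5.

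The ER oxidases, which pass oxidising equivalents to the isomerases, were at or below mock in nearly every clone. ERO1L (now ERO1A), also known as hypoxia-inducible, read 13567 in SFRP1, 14598 in SFRP2, 11937 in SFRP3, 13449 in SFRP4 and 7460 in SFRP5, against 17726 in mock. It was the 1 member 2-fold lower in SFRP5 (-1.25), opposite in sign to HSPA5 and DNAJB9 there, and its other bright probe differed by -0.46 in that clone. ERO1LB (now ERO1B) was lowest in SFRP1 (672.6, against 1865 in mock; -1.47), the lowest difference of any member in that clone, and its other probe was near the floor. CRELD2, a disulphide isomerase-like ER stress gene, was below mock in all 5 clones (-0.91 to -0.15) and lowest in SFRP1. P4HB (PDI itself) read 119782 to 192265 in the clones and 116066 in mock, with its highest difference in SFRP1 (0.73), and PDIA6 differed by -0.37 to 0.23.

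ERAD returns misfolded proteins to the cytosol for degradation, and HERPUD1 varied most among its genes. HERPUD1 (HERP), a membrane scaffold of the HRD1 ligase complex induced in the UPR, read 25416 in SFRP1, 116960 in SFRP2, 105770 in SFRP3, 58341 in SFRP4 and 130385 in SFRP5, against 60898 in mock. SFRP1 stood lowest (-1.26), SFRP4 beside mock (-0.06), and SFRP2, SFRP3 and SFRP5 were high (0.94, 0.80 and 1.10), the same division as for DNAJB9. SYVN1 (HRD1), the ubiquitin ligase of that complex, differed by 0.82 in SFRP5 and -0.65 in SFRP4, and its dimmer probe by 1.17 and -0.10. SEL1L, the partner of HRD1, differed by -0.40 to 0.38.

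EDEM1, which delivers mannose-trimmed glycoproteins to ERAD, read 6130 in SFRP1, 7443 in SFRP2, 6587 in SFRP3, 1567 in SFRP4 and 6196 in SFRP5, against 6301 in mock. The other arrays lay close together and SFRP4 stood 2.01 below mock, on the gene's single probe. EDEM3, a mannosidase, was below mock in all 5 clones (-0.80 to -0.19), while EDEM2 differed by -0.16 to 0.35. DERL1, an ERAD channel protein, was also below mock in all 5 clones, by a mean of -0.53 ± 0.11 (SD, n = 5 clones), and its other probe by -0.79 to -0.15. DERL3, an inducible paralogue, was lower in SFRP1 (-1.08) and SFRP2 (-1.77; 936.8, against 3203 in mock), but its dimmer probe, at 132.0 to 192.1 in the clones and 150.4 in mock, differed by 0.14 and -0.09 there.

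Apart from SSR1, the genes of translocation and export were highest in SFRP5. SERP1 (RAMP4), which stabilises proteins at the translocon, read 11189 in SFRP1, 26258 in SFRP2, 25327 in SFRP3, 13245 in SFRP4 and 29312 in SFRP5, against 14311 in mock. Its arrays split as for HERPUD1, with SFRP2, SFRP3 and SFRP5 at 0.88, 0.82 and 1.03 and SFRP1 and SFRP4 at -0.36 and -0.11. SEC24D, a cargo adaptor of COPII vesicles, read 7993 in SFRP1, 9707 in SFRP2, 14708 in SFRP3, 9750 in SFRP4 and 19837 in SFRP5, against 9680 in mock, and was 2-fold higher in SFRP5 alone (1.04). SEC61A1, the channel subunit, ranged from -0.15 in SFRP4 to 0.86 in SFRP5. SEC61B, the small beta subunit, was lowest in SFRP4, at 25480 against 62984 in mock (-1.31), and its other probe there differed by -1.06. SSR1, a subunit of the translocon-associated protein complex, was below mock in all 5 clones (-0.83 to -0.10), and its 2 dimmer probes by -0.37 to -0.07.

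The sensor genes varied little. ATF6 read 1445 to 1749 in the clones and 1817 in mock, a range of 0.33 that was the narrowest of the 37 members, and its second probe had the opposite sign (0.26 to 0.62 above mock in all 5 clones). EIF2AK3 (PERK) differed by -0.35 to 0.38. ERN1 (IRE1), the dimmest kept member, read 453.8 to 829.4 in the clones and 483.0 in mock, with its highest value in SFRP4 (0.78), where its other probe differed by -0.14. It passed the filter only through the SFRP4 and SFRP5 arrays (829.4 and 689.0).

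Among the effectors, XBP1 and PPP1R15A carried the differences. XBP1 read 4822 in SFRP1, 10982 in SFRP2, 9974 in SFRP3, 10028 in SFRP4 and 17718 in SFRP5, against 10953 in mock. SFRP1 was 2-fold lower (-1.18), SFRP5 was higher (0.69), and the other clones lay within 0.14 of mock. The probe's position was not known, so spliced and unspliced XBP1 could not be told apart here. PPP1R15A (GADD34), the stress-induced subunit of the eIF2alpha phosphatase, read 3551 in SFRP1, 8529 in SFRP2, 4455 in SFRP3, 1990 in SFRP4 and 7219 in SFRP5, against 2788 in mock. It was the highest member in SFRP2 (1.61), was 2-fold higher in SFRP5 as well (1.37), and was lower in SFRP4 (-0.49). PPP1R15B, the constitutive subunit, differed by -0.60 to 0.39, CREB3L2, a membrane-bound transcription factor of the secretory pathway, by -0.95 to 0.06, and WFS1 (wolframin), an ER membrane protein, by -0.41 to 0.39. The second probe of CREB3L2 was above mock in SFRP2 to SFRP5 (0.49 to 0.70), and that of PPP1R15B in every clone (0.03 to 0.51).

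**Figure D4:**
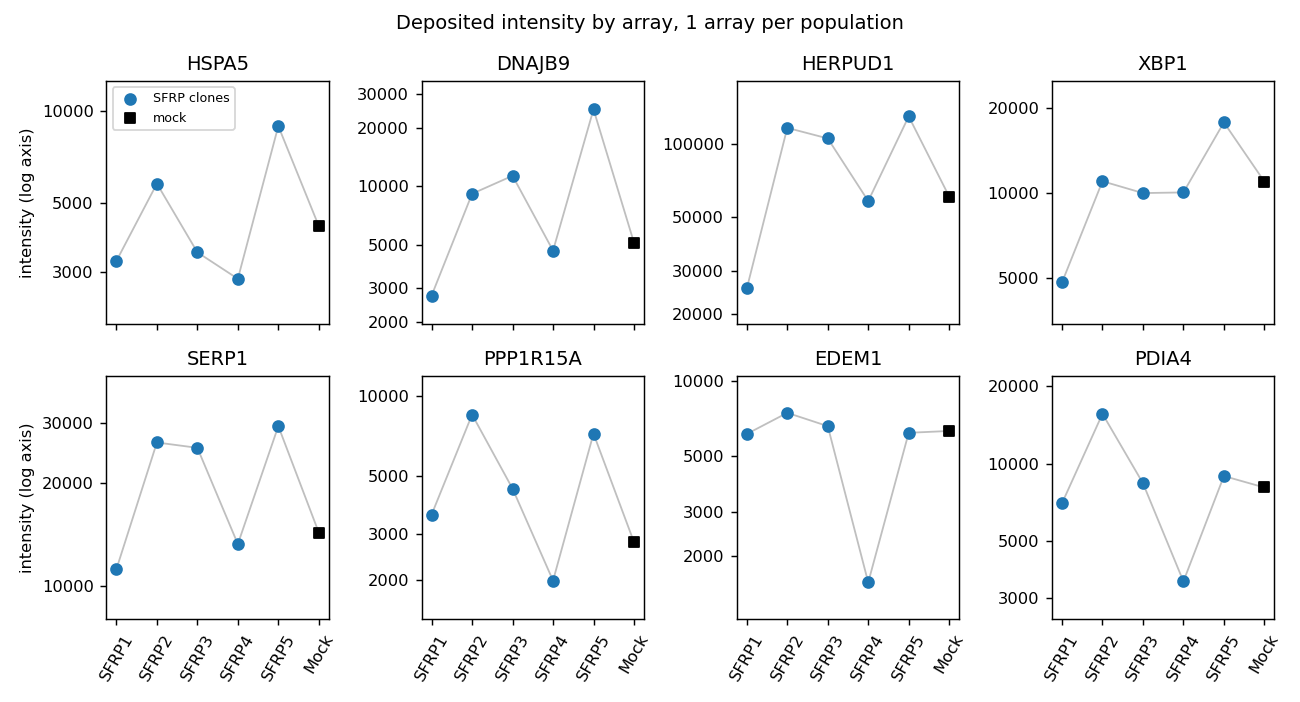
Deposited intensity (y axis, log scale with its own range in each panel) of 8 members on each array, with the SFRP clones as blue circles and mock as a black square; the grey line only joins the points. DNAJB9, HERPUD1 and SERP1 are high in SFRP2, SFRP3 and SFRP5, while EDEM1 is low in SFRP4 alone.

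The clones were also set against each other, which leaves the mock array out. The pairs given here were picked after the values were seen, so they are descriptions. Between SFRP5 and SFRP1, 10 of 37 members were at least 2-fold higher in SFRP5 (27.0%, against 7.77% of all kept genes) and none was lower (against 8.43%). They were DNAJB9 (3.19), HERPUD1 (2.36), XBP1 (1.88), SDF2L1 (1.61), DNAJC10 (1.57), HSPA5 (1.45), SERP1 (1.39), SEC24D (1.31), ERO1LB (1.12) and PPP1R15A (1.02). The member median was 0.61, against 0.08 over all kept genes, and ERO1L (-0.86), CANX (-0.59) and P4HB (-0.56) were the members farthest in the other direction. SFRP2 and SFRP3 stood above SFRP1 as well, each with 8 members at least 2-fold higher and 0 lower (medians of 0.52 and 0.51). Of all kept genes, 8.58% and 12.5% were 2-fold apart in either direction in these pairs. SFRP5 against SFRP2 and against SFRP3 had 3 members higher and 1 lower each, where 8.02% and 9.01% of all kept genes were apart.

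Between SFRP5 and SFRP4, 14 members were at least 2-fold higher in SFRP5 (37.8%, against 10.8%) and none was lower (against 9.68%). DNAJB9 (2.42), EDEM1 (1.98), PPP1R15A (1.86), SEC61B (1.71) and HSPA5 (1.65) led this set, which also held MANF, PDIA4 and SYVN1. Against SFRP2, SFRP4 had 11 members at least 2-fold lower and 1 higher, and against SFRP3 6 lower and 0 higher. Of all kept genes, 18.7% and 16.8% were 2-fold apart in either direction in these pairs, so the count against SFRP3 was near that share. Over the 6 arrays, SFRP5 gave the highest value of 15 of the 37 members (40.5%, against 24.6% of all kept genes). SFRP1 gave the lowest value of 16 (43.2%, against 16.0%) and SFRP4 of 12 (32.4%, against 23.1%). Mock gave the highest value of 7 (18.9%, against 8.51%) and the lowest of 2 (5.41%, against 14.5%). The 7, below mock in every clone on their brightest probes, were ERO1L, CRELD2, EDEM3, DERL1, DERL3, SSR1 and ATF6. By the promoter search, the 12 kept members with a stress element match had medians against mock of -0.64, 0.11, 0.25, -0.22 and 0.67 in SFRP1 to SFRP5, and the 22 with a window but no match -0.28, 0.30, 0.14, -0.36 and 0.18. The order of the sets thus differed between clones. For SFRP5 minus SFRP1, a pair picked after the values were seen, the medians were 1.25 with a match and 0.38 without. The difference between the sets was not tested.

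**Figure D5:**
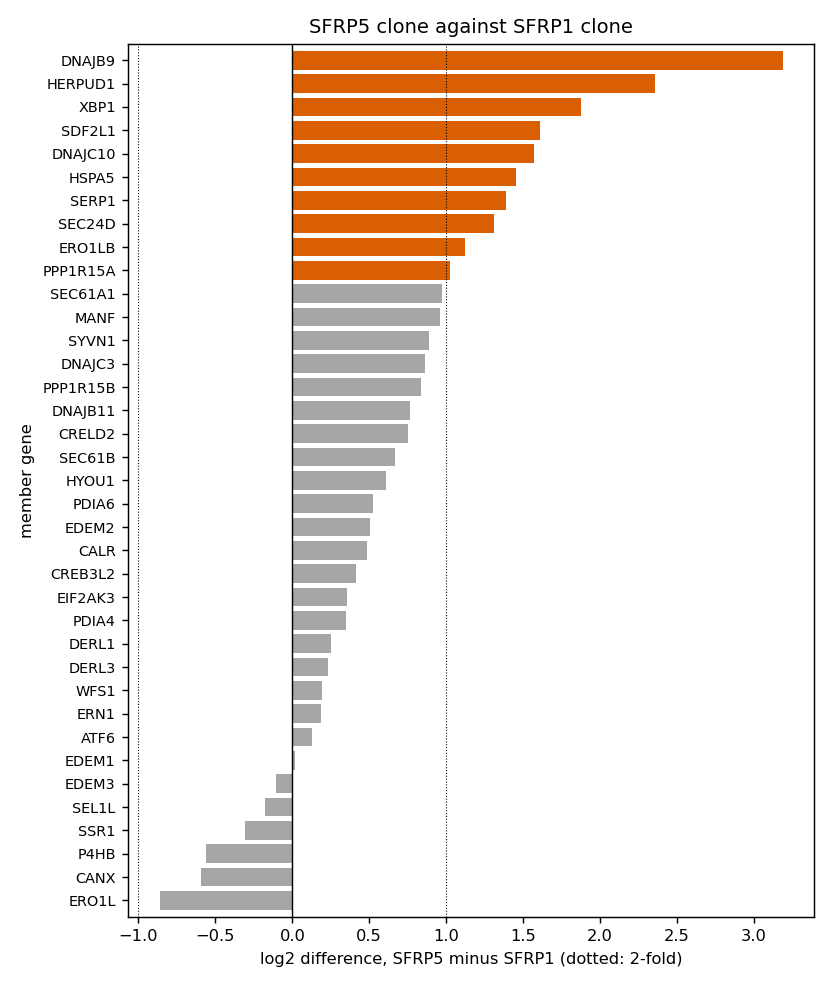
Log2 difference between the SFRP5 and SFRP1 arrays (x axis) for the 37 kept members (rows, sorted), with members at least 2-fold higher in SFRP5 in orange and the 2-fold lines dotted. The bars run from -0.86 for ERO1L to 3.19 for DNAJB9, and 10 members pass 1 while none passes -1.

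Taken over all 6 arrays, 21 of the 37 members spanned at least 2-fold (56.8%, against 47.9% of all kept genes), and 15 did so without the SFRP4 array (40.5%, against 34.7%), so members varied at about the rate of other genes. No member passed 2-fold with the same sign in every one of the 5 clones (against 0.728% of all kept genes). The clones as a set were tested against mock with limma, where the spread comes from clones that differ in their SFRP gene and mock, with its 1 array, is taken to vary as they do. It called 0 of 37 members (against 0.0418% of all kept genes). The lowest p was 0.133, for DERL1, with an adjusted p of 0.9998.

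Further genes of the pathway had medians nearer to 0 in most clones. Of 33 further ER folding genes kept, 1 was 2-fold higher in SFRP4 and 1, 2 and 1 were 2-fold lower in SFRP2, SFRP4 and SFRP5, shares at or below those of all kept genes given above. Their medians lay between -0.21 in SFRP1 and 0.21 in SFRP5. The largest mean differences were those of the thioredoxin-like TMX1 (-0.74 ± 0.30), FKBP7 (-0.55 ± 0.41) and CNPY2 (-0.53 ± 0.33; SD, n = 5 clones each). Further ERAD genes (25 kept) had medians of -0.20 to 0.08. In SFRP4 5 of them were 2-fold lower, where 7.51% of all kept genes were, and 1 was higher (against 5.97%). In SFRP1 1 was higher (against 4.41%), in SFRP2 1 was lower (against 3.89%), and in SFRP5 1 was higher and 1 lower (against 5.98% and 6.53%). RNF5 (-0.65 ± 0.37), AUP1 (-0.62 ± 0.26) and UFD1L (-0.56 ± 0.57) differed most. Further translocon, signal peptidase and oligosaccharyltransferase genes (28 kept) had medians of -0.20 to 0.14. In SFRP1, SFRP4 and SFRP5, 2, 2 and 1 of them were 2-fold lower, where 4.33%, 7.51% and 6.53% of all kept genes were. In each of SFRP4 and SFRP5 1 was higher (against 5.97% and 5.98%). TRAM1 differed by -0.70 ± 0.50, SPCS3 by -0.70 ± 0.42 and SRP68 by 0.42 ± 0.20.

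Genes of COPII export and retrieval (16 kept) had medians of -0.28 to 0.16. In SFRP1, SFRP2, SFRP4 and SFRP5, 1, 1, 3 and 1 of them were 2-fold lower, where 4.33%, 3.89%, 7.51% and 6.53% of all kept genes were. None was 2-fold higher in any clone (against 2.8% to 5.98%). KDELR3, a receptor that returns chaperones from the Golgi, differed by -1.10 ± 0.45, from -1.56 in SFRP2 to -0.48 in SFRP4. TFG and SEC24A differed by 0.62 ± 0.16 and 0.62 ± 0.25. Upstream regulators (18 kept) had medians of -0.22 to 0.13. In each of SFRP3 and SFRP5 1 gene was 2-fold higher (against 3.73% and 5.98% of all kept genes). In SFRP1 and SFRP5 1 and 2 were lower (against 4.33% and 6.53%). MBTPS2, a protease that cleaves ATF6, differed by -0.38 ± 0.49, EIF2AK2 by -0.37 ± 0.42 and YOD1 by 0.37 ± 0.79.

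The 10 genes listed for PERK and ATF4, ATF4 itself among them and all kept, had their highest medians in SFRP2, SFRP3 and SFRP5. Whether PERK acted on these genes was not tested. Their median was -0.31 in SFRP1, 0.96 in SFRP2, 0.64 in SFRP3, -0.47 in SFRP4 and 1.20 in SFRP5, with 0, 5, 1, 0 and 7 genes at least 2-fold higher and 1, 0, 1, 3 and 0 lower, against 4.41%, 2.8%, 3.73%, 5.97% and 5.98% of all kept genes higher and 4.33%, 3.89%, 3.15%, 7.51% and 6.53% lower. DDIT3 (CHOP), a pro-apoptotic transcription factor, read 14252 in SFRP1, 56463 in SFRP2, 52602 in SFRP3, 10949 in SFRP4 and 46548 in SFRP5, against 15782 in mock. CHAC1, a glutathione-degrading enzyme, was 1.87 above mock in SFRP5, and NUPR1, a stress-induced cofactor, was at -2.01 in SFRP1, 0.15 in SFRP2, -1.91 in SFRP3, -3.44 in SFRP4 and 0.17 in SFRP5. In SFRP3 it was the 1 gene of the 10 below mock, and in SFRP4 the pseudokinase gene TRIB3 (-1.44) and the transcription factor gene CEBPB (-1.20) were 2-fold lower too.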

How the data were processed

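RNA of 6 A549-derived populations was amplified and put on one-colour arrays with Cy5, per the labels' protocols. The authors deposited intensity values on a linear scale for 31741 probes. The sources used here do not give the scanner, the background correction or the scaling. Values under 2000 were all (100%) whole multiples of a factor particular to the array (0.795 to 1.37; tolerance 0.05), and 22 values on the SFRP4 array were below 0. No values were identical between arrays.

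Values below 0 were set to 0, 1 was added and log2 was taken. Probes were named from the platform annotation (24740 with 1 symbol). A gene took its probe with the highest mean. Genes were kept when the brightest array reached the table median (9.33 on the log2 scale). Spot-level background was not used here. In R 4.3.3, limma 3.58.1 (two-sided moderated test, 4 residual degrees of freedom) compared the 5 clones with mock, with Benjamini-Hochberg adjustment over all 11954 genes, and it was tested on simulated data. Groups came from sample titles. Single clones were compared with mock by 2-fold counts without a test.

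Members, roles and lists were chosen with earlier results of these data known. The named genes are all members and, for each further list, the 3 kept genes with the largest absolute mean difference. In the list for PERK and ATF4, TRIB3 and CEBPB were named too, as the other genes 2-fold lower in SFRP4. Promoters are those of the 4 members with the widest range and HSPA5, with XBP1 and SERP1 added after the search. Alternatives were quantile normalization, median centring, a floor at the 10th percentile, a pseudocount of 50, no filter, a filter on the mean, the mean of all probes, a 1.5-fold threshold, a mean-variance trend and leaving out each clone.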

Additional observations from a re-analysis of the deposited data

Results flagged for a closer look

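Among the 5 clones, 1 array stood far from the other 4 for 2 of the 37 members, by the gap to its nearest neighbour over the whole range (Dixon's critical value of 0.71 for 5 samples, which chance alone passes in about 1 of 20 groups). EDEM1 differed from mock by -2.01 in SFRP4, with a gap of 0.875 of the range. PDIA6 differed from mock by -0.37 in SFRP1, with a gap of 0.858 of a narrow range. With 37 members looked at, 2 is near that rate of 1 in 20. The rate holds for replicates of one condition, and the 5 clones carry different SFRP genes, so they are not such replicates. No share over all kept genes was computed, so whether 2 of 37 is many or few for these arrays is not known.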

How the results depend on the processing

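No paired analysis was possible because each population has 1 array. The member medians kept their sign under the 7 planned settings of scaling, floor, pseudocount, filter and probe choice (-0.48 to -0.28 in SFRP1, 0.10 to 0.25 in SFRP2, 0.15 to 0.23 in SFRP3, -0.44 to -0.14 in SFRP4, 0.04 to 0.34 in SFRP5). The count of 2-fold members in SFRP1 was 9 after median centring and 3 with the mean of all probes (35 members kept), and that in SFRP2 was 1 with the mean of all probes. At 1.5-fold the counts were 14 in SFRP1, 8 in SFRP2, 8 in SFRP3, 12 in SFRP4 and 19 in SFRP5, as a lower threshold must give. With the mean of all probes, DERL3 no longer reached 2-fold in SFRP1 (-0.47) and SFRP2 (-0.93), nor did ERO1L in SFRP5 (-0.85). No called member difference changed sign in 125 recomputed values. These differences were picked as at least 2-fold, so a change of sign was unlikely from the start. The settings that alter only the filter leave such a value as it was. In comparisons chosen after seeing the data, SFRP5 had 9 to 10 members 2-fold above SFRP1 and 11 to 14 above SFRP4 over these settings, and none below. The range count was 15 to 19 without the SFRP4, SFRP1 or SFRP5 array. limma called 0 members under every setting run, trend and each left-out clone included. A difference near 2-fold rests on 1 array on each side, and depth per spot was not used here.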

Other observations

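Chaperones of the cytosol and mitochondria were examined beside those of the ER. Of 17 kept, 16 were above mock in SFRP3 and 17 in SFRP5, where 6399 and 6688 of the 11954 kept genes were. The medians were 0.00 in SFRP1, 0.13 in SFRP2, 0.39 in SFRP3, 0.01 in SFRP4 and 0.43 in SFRP5. In SFRP5 3 of them were at least 2-fold higher (where 5.98% of all kept genes were) and in SFRP2 1 was (where 2.8% were). None was 2-fold lower in any of the 5 clones (against 3.15% to 7.51%). HSP90AA1, the inducible cytosolic Hsp90, read 44002 in SFRP1, 51772 in SFRP2, 93571 in SFRP3, 66382 in SFRP4 and 98250 in SFRP5, against 47426 in mock. BAG3, an Hsp70 cochaperone, was 1.01 above mock in SFRP2, and TCP1, a subunit of the cytosolic chaperonin, differed by 0.34 ± 0.23 (SD, n = 5 clones). The ER Hsp70 system had medians of -0.38, 0.46, 0.35, -0.28 and 0.66 in SFRP1 to SFRP5. All 37 members had medians of 0.23 in SFRP3 and 0.24 in SFRP5, so higher values there were not particular to ER genes. The difference between the ER Hsp70 system and these chaperones was not tested.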
